A study of Mus musculus with 6 samples.

Results

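Sphingosine 1-phosphate (S1P) is a signalling lipid, and the genes described here are those of its receptors and of the enzymes and exporter that set its level. The members were chosen by gene symbol: 4 receptors (S1pr1, S1pr2, S1pr3 and S1pr5), 2 kinases (Sphk1 and Sphk2), the lyase Sgpl1, the phosphatase Sgpp1 and the exporter Spns2. All 9 were found among the 39017 genes of the deposited table, and all 9 were among the 16569 that passed the filter on low counts. The RNA was that of tagged ribosomes, and the tissue was corpus callosum, a large white matter tract, of C57BL/6 mice. All mice carried RiboTag and Olig1-Cre, so that RPL22, a protein of the ribosome, is made with an HA tag wherever Cre, driven by the Olig1 promoter, has been active, and an anti-HA antibody pulls down the tagged ribosomes with their RNA. From control mice 3 libraries (replicates 24, 26 and 27) were compared with 3 of cuprizone-fed mice (replicates 30, 31 and 32). The titles call the control libraries Vehicle and the others Cuz, and do not say what the vehicle was. Cuprizone, given at 0.2% of the diet, chelates copper, and mice that eat it lose oligodendrocytes and myelin. The treatment text describes females aged 8 to 10 weeks, cuprizone for 6 or 9 weeks and 3 weeks of recovery on control diet, without saying which of these the cuprizone libraries had. The labels do not say whether each library came from a single mouse, so p-values measure the spread between these libraries.

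Sphingosine, released from ceramide, is phosphorylated to S1P by the sphingosine kinases inside the cell. S1P is then carried out by SPNS2, turned back to sphingosine by the phosphatase SGPP1 in the endoplasmic reticulum, or broken down for good by the lyase SGPL1. Outside the cell it acts on a family of G protein-coupled receptors. S1PR1 couples to Gi alone and is abundant on astrocytes and endothelium, S1PR2 and S1PR3 also couple to G12/13 and Gq, and S1PR5 couples to Gi and G12/13. S1PR5 is the receptor best known from oligodendrocytes and natural killer cells, and S1PR1 and S1PR5 are targets of drugs for multiple sclerosis such as siponimod.

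The captured material can be read from its markers. The mature oligodendrocyte list held 65895 to 87145 CPM (a gene's counts brought to 1 common library size, with library sizes scaled by the TMM method) in the control libraries and 8782 to 16747 CPM in the cuprizone libraries, and all 12 of its genes fell. Mbp, a main protein of myelin, had a log2 fold change of -2.62 (adjusted p = 0.0104, or 0.0558 without cuprizone replicate 30). With a library left out 10 to 12 of the 12 fell. Astrocyte markers were abundant too, with sums of 22254 to 25010 CPM in the control libraries and 15711 to 30365 CPM in the cuprizone libraries, so the captured RNA is not that of oligodendrocytes alone. Neuron markers summed to 1656 to 2655 CPM in control and 1963 to 3759.5 CPM in cuprizone, and none of the 9 passed with edgeR. Cuprizone replicate 32 was set apart from its group, with the lowest summed astrocyte and progenitor markers of the 6 libraries. Its summed microglial, endothelial, pericyte and neuron markers were the highest. This holds for the sums and not for each gene. P2ry12 (microglia) and Tubb3 (neurons) were highest in a control library, and Kdr (endothelium) and Gad1 (neurons) in cuprizone replicate 30. Gfap (astrocytes) was higher in replicate 32 than in control replicates 26 and 27. Total counts ran from 18549360 to 22381307.

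S1pr5 showed by far the largest difference of the 9 genes. The gene (ENSMUSG00000045087) lies at chr9:21242912-21248443 on the minus strand of GRCm38, the assembly also called mm10. It shares 2.04% of its exonic bases with Gm48303 on the other strand. The 250 bases before the start of S1pr5, chr9:21248444-21248693, are printed here in the direction of transcription. The sequence marked in them was picked after they had been seen. Capitals mark 2 overlapping copies of CTGGTAC, 1 on each strand, which together form the palindrome CTGGTACCAG, 169 to 160 bases before the start.

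S1pr5: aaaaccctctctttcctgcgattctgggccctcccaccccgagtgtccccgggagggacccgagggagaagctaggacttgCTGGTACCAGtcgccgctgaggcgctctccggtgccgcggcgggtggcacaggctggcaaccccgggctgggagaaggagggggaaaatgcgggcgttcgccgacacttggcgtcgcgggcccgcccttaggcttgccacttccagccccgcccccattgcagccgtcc

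As background, CTGGTAC and CTGGCAC are the forms of the sequence recognised by MYRF, the transcription factor of myelinating oligodendrocytes. Sequences were taken from RefSeq windows of GRCm38.p6 that reach from 250 bases before to 50 after a start, and both strands were searched. Of 32851 windows 7.1% held at least 1 of these 2 words and 2.24% held CTGGTAC. The palindrome CTGGTACCAG was in 7 windows (0.0213%). It is longer than the other words searched and was picked from the S1pr5 window itself, so this low share does not set S1pr5 apart. Among the members 8 genes had a window, 13 windows in all, and S1pr5 was the only gene of these 8 with either word. That is 1 of the 13 windows (7.69%), near the 7.1% of all windows. S1pr1 had no entry. Other words were searched too. The word ACAAAG was in 2 of the 13 member windows (18.7% of all windows) and CAGCTG was in 1 (16.3%). The promoter words GGGCGG and CCAAT were each in 6 (35.7% and 37.4% of all windows), and TATAAA was in 1 (13.6%). Of the mature oligodendrocyte markers 9 had a window, and 4 of these genes (44.4%, against 8.1% of the 27025 genes with a window) held either word, namely Mag, Cnp, Mog and Opalin. ACAAAG and CCAAT were each in 4 of these 9 genes too (21% and 41.1% of all genes with a window). CAGCTG and GGGCGG were each in 2 (18.3% and 38.2%) and TATAAA was in 1 (15.7%). Of the 5 genes with profiles most like that of S1pr5, named further on, 3 had a window, and 1, Mog, held either word. The matches of S1pr5, Mog, Mag and Cnp, all before the start, are set beside each other below, with the match in capitals.
S1pr5: taggacttgCTGGTACCAGtcgccgctg
Mog: gaaatgcccaGTACCAGgcagccactg
Mag: caggcggcccCTGGCACccagggggca
Cnp: ccgctgcttcCTGGCACtcaggtttcc

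The stretches lie at chr9:21248594-21248621 for S1pr5, chr17:37023465-37023491 for Mog, chr7:30914915-30914941 for Mag and chr11:100574848-100574874 for Cnp, with Cnp on the plus strand and the others on the minus strand. In Mog the word is read from the opposite strand. A match of letters is a description and does not show that a factor binds. Of the 7 genes whose windows hold the palindrome 5 were tested, S1pr5, Gnas, Pdk3, Rpe65 and Tmem221, which were looked at after the sequence had been seen. Pdk3, a kinase of the pyruvate dehydrogenase complex, had a log2 fold change of -0.73 (edgeR adjusted p = 0.0157), and it failed to pass without any 1 of control replicates 24, 26 and 27 and cuprizone replicate 30, with adjusted p of 0.0524 to 0.0688. Gnas, Rpe65 and Tmem221 had log2 fold changes of 0.03, 0.34 and 1.14 and did not pass (adjusted p = 0.95, 0.68 and 0.24).

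S1pr5 stood at 258, 261 and 219.8 CPM in control replicates 24, 26 and 27. In cuprizone replicates 30, 31 and 32 it stood at 14.6, 19.5 and 9.58 CPM. The groups were far apart, with the lowest control library more than 10 times above the highest cuprizone library. The mean of S1pr5 fell from 246 ± 22.8 CPM in control to 14.5 ± 4.94 CPM in cuprizone (SD over 3 libraries each). Its log2 fold change was -4.08 ± 0.27 (SE; adjusted p = 8.96e-04 with edgeR's quasi-likelihood test). Of 16569 tested genes 17 had a lower fold change. Control and cuprizone were compared in the same way for every gene, and 7.57% of all tested genes passed an adjusted p of 0.05, 1.87% higher and 5.7% lower. Of the 9 members, 2 fell (S1pr5 and Spns2) and none rose, and 5 of 9 had groups that did not overlap, against 30.2% of all tested genes. No member rose with limma-voom (1.77% of all tested genes did) and 2 rose with DESeq2 (5.21% of all did). An unadjusted p under 0.05 was reached by 5 of 9 members and by 23.3% of all tested genes. The median log2 fold change of the 9 was -0.01, beside 0.02 for all tested genes. In bulk libraries fewer cells of a type and less RNA per cell cannot be told apart, which holds for each change given here.

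**Figure D1:**
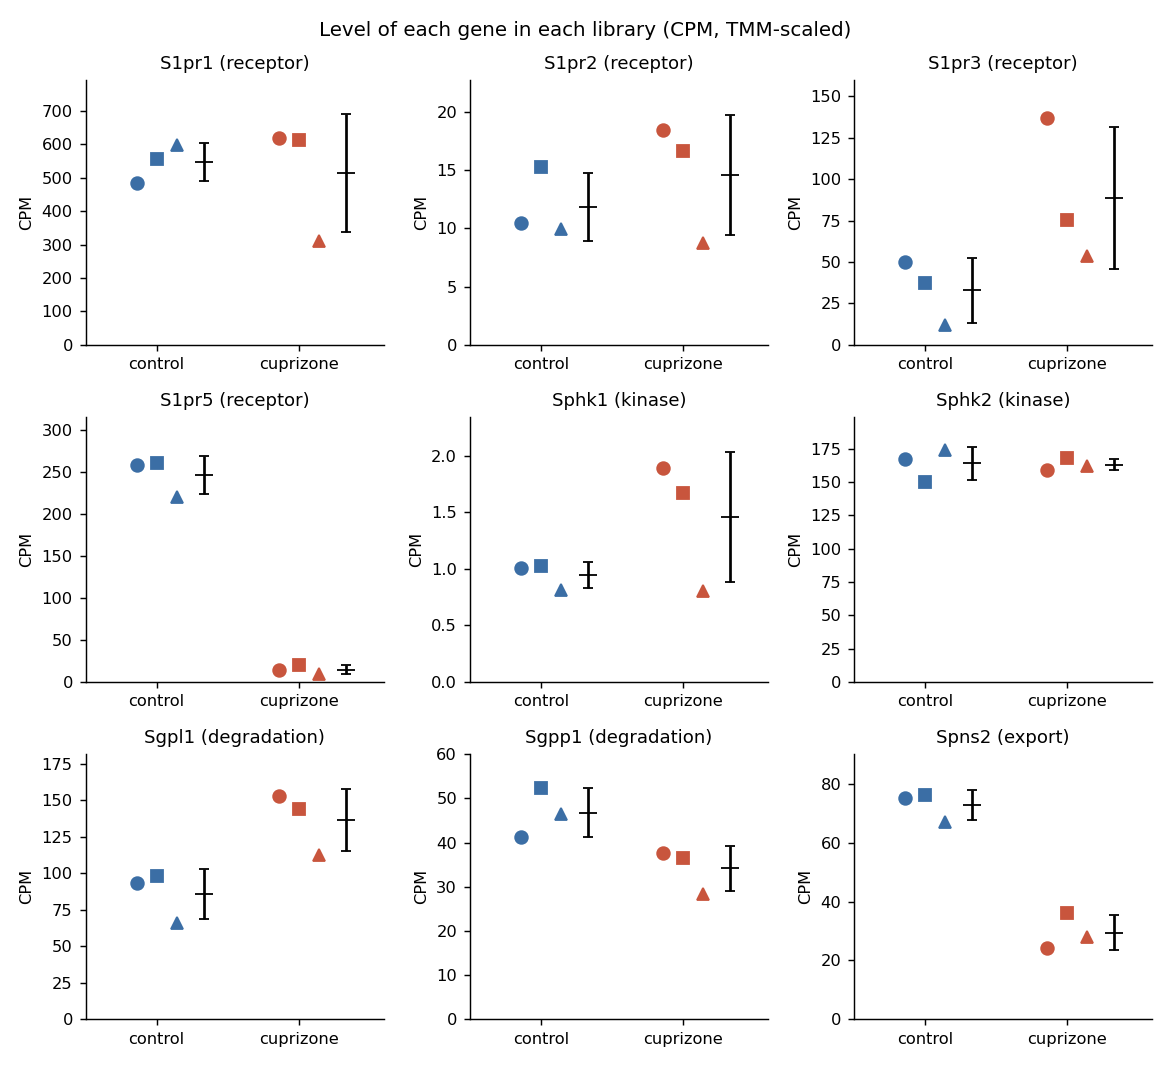
CPM (vertical axis, from 0) of the 9 genes in each control (blue) and cuprizone (red) library; circle, square and triangle are replicates 24, 26 and 27 in control and 30, 31 and 32 in cuprizone, and the bar is the mean with its SD. S1pr5 drops from 246 to 14.5 CPM and Spns2 from 72.9 to 29.4 CPM with no overlap, while S1pr1, S1pr2, Sphk1 and Sphk2 overlap between the groups.

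The fall of S1pr5 was set against that of mature oligodendrocyte markers within each library. Its log2 CPM less the mean log2 CPM of the 12 markers was -3.26, -3.06 and -3.33 in control replicates 24, 26 and 27. It was -3.85, -4.35 and -4.22 in cuprizone replicates 30, 31 and 32. S1pr5 therefore lay further below the markers in every cuprizone library than in any control library, by 0.92 on the log2 scale on average (exact permutation p = 0.1, 2-sided, the smallest that 3 against 3 allows). Of the 12 markers only Mal, a proteolipid of compact myelin, had a lower fold change than S1pr5, at -4.74, and the highest was that of Trf, the iron carrier transferrin, at -1.81. Trf did not pass without control replicate 24, 26 or 27 or cuprizone replicate 30 (adjusted p of 0.0663 to 0.0987). S1PR5 is also known from natural killer cells. The lymphocyte and natural killer list summed to 0.113 to 0.815 CPM in control and 0.18 to 6.98 CPM in cuprizone, with none of its 8 genes above the filter. The sum was highest in replicate 32, the library with the lowest S1pr5, with Cd3e (60 counts), Cd3g (28), Nkg7 (24), Cd2 (19) and Klrb1c (14). The natural killer gene Ncr1 had 1 count there and 0 in every other library. The part of such cells in the level of S1pr5 was not tested.

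The profiles most like that of S1pr5 were those of Itgb4, Anln and Mog. Likeness was taken as the root-mean-square difference between log2 CPM profiles, each centred on its own mean, over the 6 libraries and 11205 protein-coding genes of at least 5 CPM. The nearest was Itgb4, an integrin subunit that binds laminin, with a difference of 0.13. Next came Anln, the septin-binding protein anillin, at 0.21 and Mog, a glycoprotein on the outer face of myelin, at 0.22. Serpinb1a, an inhibitor of neutrophil proteases, and Adamtsl4, a secreted matrix protein, followed at 0.29 each. Their own log2 fold changes were -3.92, -3.72, -3.67, -3.70 and -3.95. The profiles span both groups, so genes picked by likeness have fold changes near that of S1pr5 by the way they were picked.

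No gene tested near S1pr5 on the chromosome had a fold change close to its own. S1pr2 lies on the same strand, 266 kb from S1pr5 measured between the gene bodies, at chr9:20962361-20976781. Within 300000 bases of S1pr5, 26 other genes were tested, and none passed with edgeR, with 7 at an unadjusted p under 0.05, beside the 23.3% of all tested genes. DESeq2 called 3 higher and 1 lower (5.21% and 8.46% of all tested genes), and limma-voom called 1 lower (5.87% of all). Their log2 fold changes ran from -0.48 to 1.81 with a median of 0.02. The nearest on either side, picked for position, were Keap1, which marks the antioxidant regulator NRF2 for breakdown, at 0.03, and Atg4d, a protease of autophagy, at -0.48. Atg4d lay at the threshold (adjusted p = 0.0501) and passed with DESeq2, limma-voom, 2 other settings and without cuprizone replicate 32, with adjusted p between 0.00877 and 0.0499.

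**Figure D2:**
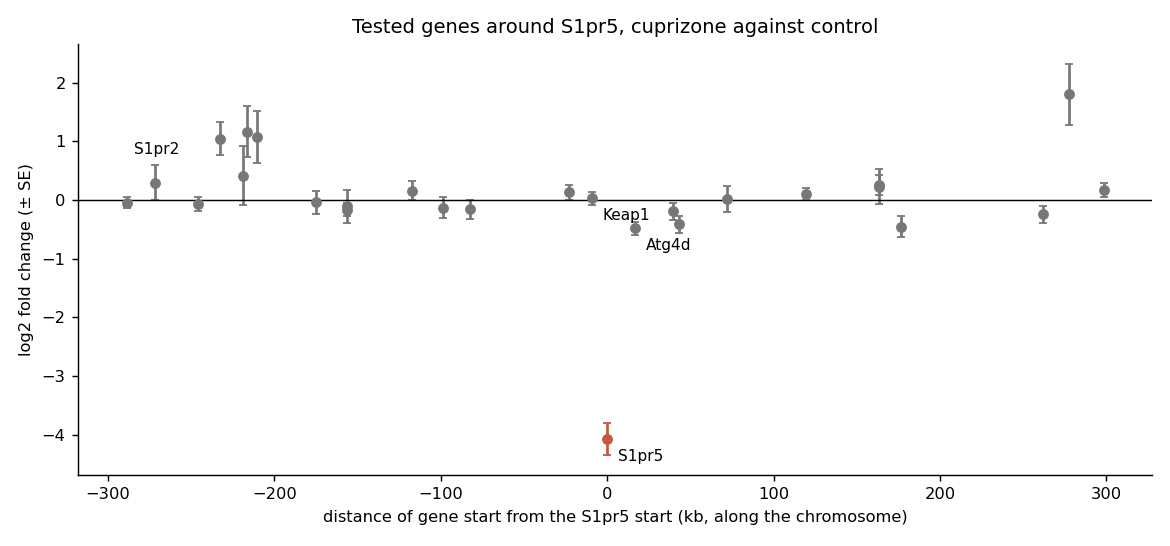
Log2 fold change with its SE (vertical axis) of each tested gene by the distance of its start from that of S1pr5 in kilobases (horizontal axis); red marks an adjusted p under 0.05. S1pr5 sits alone at -4.08, and its 26 tested neighbours lie between -0.48 and 1.81.

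None of the other receptors passed the test. S1pr1, the Gi-coupled receptor and the most abundant member, stood at 486, 555 and 599 CPM in control replicates 24, 26 and 27 and at 619, 612 and 310.1 CPM in cuprizone replicates 30, 31 and 32. Replicates 30 and 31 were above every control, and replicate 32 was below every control. The log2 fold change was -0.09 ± 0.28 (adjusted p = 0.88), and without cuprizone replicate 32 it turned to 0.17 ± 0.13 (adjusted p = 0.49). Astrocyte and oligodendrocyte progenitor markers, taken as lists, were also lowest in replicate 32. Relative to the control mean S1pr1 was at 0.18, 0.17 and -0.81 in replicates 30, 31 and 32. The mean log2 level of the astrocyte markers was 0.23, 0.38 and -0.71, and that of the progenitor markers 0.26, 0.13 and -0.68. None of the 9 astrocyte and 7 tested progenitor markers passed the test with edgeR, none had an unadjusted p under 0.05, and none was at 0. The progenitor markers summed to 840 to 1149 CPM in control and 615 to 1110 CPM in cuprizone. The part of either list in the level of S1pr1 was not tested.

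S1pr3, which couples to Gi, Gq and G12/13 and is known from astrocytes and vessel walls, was higher in every cuprizone library but very uneven. It stood at 49.7, 36.9 and 11.6 CPM in control replicates 24, 26 and 27 and at 137, 75.2 and 53.7 CPM in cuprizone replicates 30, 31 and 32. The groups did not overlap, as in 12.6% of all tested genes with cuprizone above control. The log2 fold change of 1.43 ± 0.54 did not pass the test (adjusted p = 0.17), although DESeq2 gave an adjusted p of 0.0405, and over all alternatives the adjusted p ran from there to 0.39. Pericyte and smooth muscle markers, 8 genes with none at 0 in every library, summed to 42.6 to 61.2 CPM in control and 46.4 to 197 CPM in cuprizone, and 0 of the 6 tested passed with edgeR, with 2 at an unadjusted p under 0.05. Their sum was highest in replicate 32, where S1pr3 was the lowest of its group, and Vtn (78.1 CPM) and Rgs5 (43.2 CPM) were its largest parts. Pdgfrb, Tagln and Myh11 were instead highest in replicate 30, where S1pr3 was highest, and the rest of the list in replicate 32. The part of these markers in the level of S1pr3 was not tested. In the region of S1pr3 (chr13:51408639-51422797, plus strand) 1.01% of its exonic bases are shared with a long noncoding gene on the other strand.

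S1pr2, which couples mainly to G12/13, was the least abundant of the 4 member receptors. It stood at 10.4, 15.2 and 9.96 CPM in control replicates 24, 26 and 27 and at 18.5, 16.6 and 8.73 CPM in cuprizone replicates 30, 31 and 32. Replicates 30 and 31 were above all controls and replicate 32 below them, as for S1pr1, and the log2 fold change of 0.30 ± 0.30 did not pass (adjusted p = 0.60). S1pr4, the remaining receptor of the family and known from lymphocytes, had 2, 2 and 5 counts in control and 0, 7 and 20 in cuprizone, and was too low to be tested.

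The make-up of the receptor transcripts changed with the fall of S1pr5 given above. Shares add up to a whole, so those of the other receptors rise when S1pr5 falls, even at unchanged levels of their own. The shares are therefore not a separate test. With levels divided by exonic length, S1pr5 made up 37.5%, 35.1% and 30.5% of the summed level of the 4 receptors in control replicates 24, 26 and 27. In cuprizone replicates 30, 31 and 32 its share was 2.43%, 3.44% and 3.26%. The groups did not overlap, and the mean share fell by 31.3 percentage points (exact permutation p = 0.1, 2-sided, the smallest possible). The share of S1pr1 was 62.5% ± 5.20 in control and 85.9% ± 2.16 in cuprizone, that of S1pr3 2.59% ± 1.59 and 10.1% ± 2.62, and that of S1pr2 0.522% ± 0.112 and 0.939% ± 0.0216 (SD, n = 3). The log2 ratio of S1pr5 to S1pr1 went from -0.86 ± 0.27 to -4.84 ± 0.24. Against S1pr3 the ratio changed sign, from 3.98 ± 0.97 to -1.71 ± 0.64. The summed level of the 4 receptors was 287 ± 10.8 CPM per kb in control and 196 ± 67.3 CPM per kb in cuprizone, with cuprizone replicate 32 lowest at 119.

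**Figure D3:**
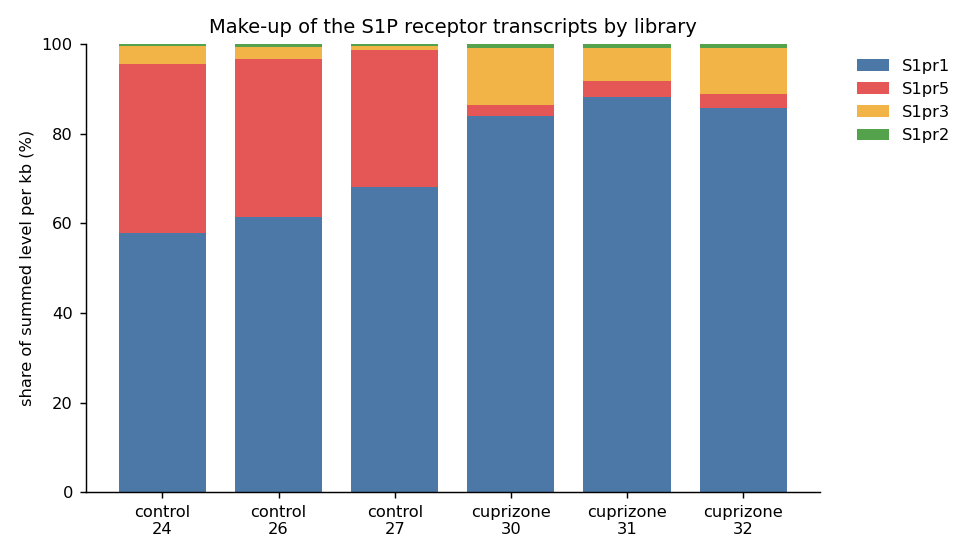
Share of each receptor in the summed length-normalised level of S1pr1, S1pr5, S1pr3 and S1pr2 (vertical axis, percent) in each of the 6 libraries. S1pr5 takes 30.5% to 37.5% of a control library and 2.43% to 3.44% of a cuprizone library, where S1pr1 takes 83.9% to 88.2%.

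Spns2, the S1P exporter (ENSMUSG00000040447, chr11:72451638-72489904, minus strand), was the other member that fell. It stood at 75.3, 76.2 and 67.2 CPM in control replicates 24, 26 and 27 and at 24.2, 36.05 and 28.02 CPM in cuprizone replicates 30, 31 and 32. Each cuprizone library was well below every control. The log2 fold change was -1.31 ± 0.16 (adjusted p = 0.0049 with edgeR's test), less steep than that of each of the 12 mature oligodendrocyte markers. SPNS2 is best known from endothelium. Endothelial markers summed to 22.05 to 24.05 CPM in control and 21.8 to 71.6 CPM in cuprizone, none of the 9 passed with edgeR (3 had an unadjusted p under 0.05), and 8 of 9 had a positive fold change. None of the 9 was at 0 in every library, and their part in the level of Spns2 was not tested. Relative to the control mean Spns2 was at -1.59, -1.01 and -1.37 in cuprizone replicates 30, 31 and 32, and replicate 31 was also the library with the smallest fall of the mature oligodendrocyte markers (-2.52, beside -3.42 and -3.66). The profiles nearest to that of Spns2 were those of Snx30, a sorting nexin, Larp6, an RNA-binding protein, and Sbf1, a relative of the myotubularin phosphatases, with differences of 0.08 each and log2 fold changes of -1.25, -1.34 and -1.43. Here too, near fold changes follow from the way the genes were picked. Larp6 had an adjusted p of 0.054 without control replicate 26. The exonic bases that Spns2 shares with Mybbp1a on the other strand are 3.21% of its own, and Mybbp1a had a log2 fold change of 0.23. Mfsd2b, the S1P exporter of blood cells, was low in both groups, with means of 0.638 and 0.438 CPM (adjusted p = 0.44).

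**Figure D4:**
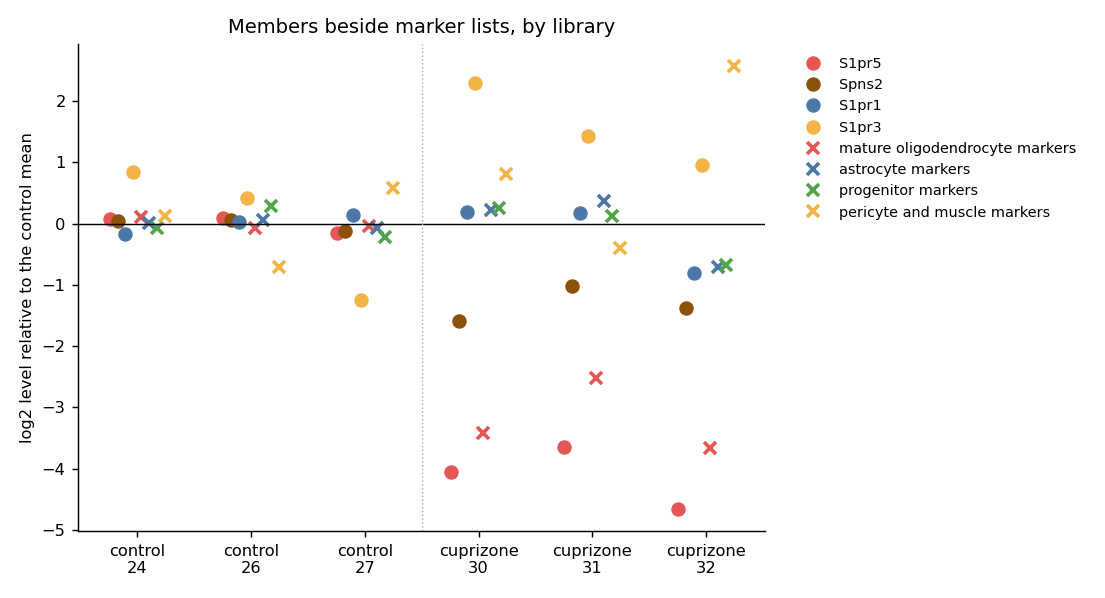
Log2 level relative to the control mean (vertical axis) in each library for S1pr5, Spns2, S1pr1 and S1pr3 (circles) and for the mean of 4 marker lists (crosses). S1pr5 lies below the mature oligodendrocyte markers in each cuprizone library, and S1pr1 lies near the astrocyte and progenitor markers, all 3 low in cuprizone replicate 32.

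The kinases differed in level far more than between the diets. Sphk2, the kinase found in the nucleus and in mitochondria, stood at 167, 150.4 and 174 CPM in control replicates 24, 26 and 27 and at 159, 168 and 162 CPM in cuprizone replicates 30, 31 and 32. The cuprizone values lay inside the control range, and the log2 fold change was -0.01 ± 0.12 (adjusted p = 0.97), its sign changing with the scaling. Of the exonic bases of Sphk2 13% are shared with Dbp and 8.97% with Rpl18, both on the other strand, so part of its count may belong to them. Dbp had 283 and 323 CPM and a log2 fold change of 0.19. Sphk1, the kinase of the cytosol and cell membrane, had 14 to 18 counts in a control library and 17 to 42 in a cuprizone library. Its log2 fold change of 0.62 ± 0.38 (adjusted p = 0.37) rests on 0.815 to 1.02 CPM in control and 0.802 to 1.89 CPM in cuprizone. Replicates 30 and 31 were again above the controls and replicate 32 below them. Of the exonic bases of Sphk1 4.02% are shared with an antisense gene on the other strand.

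Among the members, both enzymes that remove S1P had groups that did not overlap, in opposite directions, and neither of the pair passed the test. Sgpl1, the lyase (chr10:61098642-61147703, minus strand), stood at 93.3, 98.3 and 65.9 CPM in control replicates 24, 26 and 27 and at 153, 144 and 113 CPM in cuprizone replicates 30, 31 and 32. The log2 fold change was 0.67 ± 0.19 (adjusted p = 0.0896). DESeq2 gave it an adjusted p of 0.02 and edgeR one of 0.0443 without cuprizone replicate 32, and over all alternatives the adjusted p ran from 0.02 to 0.247. Microglia and macrophage markers summed to 1018 to 1977 CPM in control and 1504 to 3439 CPM in cuprizone, with none of 10 past the threshold with edgeR and 2 at an unadjusted p under 0.05. Their sum was highest in replicate 32, where Sgpl1 was lowest of its group, and their part in the level of Sgpl1 was not tested. Sgpp1, the phosphatase, stood at 41.3, 52.4 and 46.5 CPM in control and at 37.6, 36.6 and 28.2 CPM in cuprizone, with no overlap and a difference of -0.45 ± 0.15 on the log2 scale (adjusted p = 0.13). Cuprizone was below control without overlap in 17.6% of all tested genes. Within a library, the kinases' summed level per length over that of Sgpl1 and Sgpp1 had a log2 ratio of 0.84 ± 0.31 in control and 0.49 ± 0.23 in cuprizone, and the groups overlapped (exact permutation p = 0.2, 2-sided).

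Divided by exonic length, the levels of the members spanned a wide range. In control S1pr1 led at 179 ± 18.8 CPM per kb, followed by S1pr5 at 98.4 ± 9.12, Sphk2 at 39.5 ± 2.98, Spns2 at 17.9 ± 1.22 and Sgpl1 at 13.97 ± 2.84 CPM per kb. Then came Sgpp1 at 8.28 ± 0.983 and S1pr3 at 7.34 ± 4.35 CPM per kb, whose ranges overlapped, and below them S1pr2 at 1.49 and Sphk1 at 0.198 CPM per kb. In cuprizone S1pr5 was seventh of the 9, at 5.82 ± 1.98 CPM per kb, within the range of Sgpp1 (6.04 ± 0.914), and Sgpp1 overlapped Spns2 (7.20 ± 1.48). Sgpl1 and S1pr3, at 22.2 ± 3.45 and 19.8 ± 9.64 CPM per kb, also overlapped, while S1pr1 and Sphk2 held the first places at 169 ± 57.9 and 39.2 ± 1.05 CPM per kb.

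Other genes of the S1P pathway mostly kept below the threshold. Of 14 listed, 11 were tested, 2 fell and none rose, with a median log2 fold change of -0.14. Of all tested genes 5.7% fell and 1.87% rose. None rose with DESeq2 or limma-voom either (5.21% and 1.77% of all tested genes did). Plpp2, a phosphatase of S1P and other lipid phosphates at the cell surface, went from 37.6 to 7.32 CPM (-2.36 ± 0.23 on the log2 scale, adjusted p = 0.00212). Asah2, the neutral ceramidase, went from 17.1 to 7.15 CPM (-1.26 ± 0.25, adjusted p = 0.025). It did not pass without control replicate 26 or 27 or cuprizone replicate 30, where the adjusted p ran from 0.0582 to 0.0969. Asah1, the acid ceramidase of lysosomes, had a log2 fold change of 0.25 (adjusted p = 0.20).

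Enzymes that make and use ceramide, the source of sphingosine, gave 3 lower and 1 higher of 24 tested, with a median of -0.28. The shares of all tested genes were 5.7% lower and 1.87% higher. Cers2, the synthase for ceramides of very long acyl chains, had a log2 fold change of -2.07 ± 0.17 (adjusted p = 0.00154). Degs1, which makes ceramide by desaturation, had -1.06 ± 0.19 and Sptlc2, a subunit of serine palmitoyltransferase, -0.58 ± 0.11. The gene that rose was Smpd3, the neutral sphingomyelinase of brain, from 52.4 to 98.4 CPM (0.91 ± 0.16, adjusted p = 0.0183). Of these Cers2 passed whichever library was left out. Degs1, Sptlc2 and Smpd3 did not pass without control replicate 24, 26 or 27 or cuprizone replicate 30 (adjusted p of 0.0549 to 0.0948), nor Sptlc2 without cuprizone replicate 31.

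On the receiving side, 2 of 19 genes of receptor coupling fell with edgeR, beside 5.7% of all tested genes, with a median of -0.02. None rose with edgeR, DESeq2 or limma-voom (1.87%, 5.21% and 1.77% of all tested genes did). Gnai1, a Gi subunit, went from 181 to 62.5 CPM (-1.54 ± 0.16, adjusted p = 0.00248), and Gna12, the G12 subunit, from 934 to 339 CPM (-1.46 ± 0.21, adjusted p = 0.008). The other Gi subunits, Gnai2 and Gnai3, had log2 fold changes of 0.10 and -0.11 and did not pass (adjusted p = 0.79 and 0.65), and Gna13, which pairs with Gna12 in the same class, had 0.11 (adjusted p = 0.80). Rock1, a kinase downstream of RhoA, had -0.37 (adjusted p = 0.22). S1PR5 couples to the Gi and G12/13 classes, as background.

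Lysophosphatidic acid is another signalling lipid, and of its receptors Lpar1, Lpar2 and Lpar3 are near kin of the S1P receptors. Lpar1, the most abundant of them here and known from oligodendrocytes, went from 362 to 60.6 CPM (-2.58 ± 0.23 on the log2 scale, adjusted p = 0.00185). Lpar2 had 0.814 and 1.85 CPM, and its log2 fold change of 1.18 ± 0.37 did not pass (adjusted p = 0.11), nor did those of Lpar3, Lpar4, Lpar5 and Lpar6. Enpp2, the secreted enzyme autotaxin that makes lysophosphatidic acid, went from 1333 to 168.1 CPM (-2.99 ± 0.48, adjusted p = 0.0125, or 0.0649 without cuprizone replicate 30). Of the 7 genes 2 fell, beside 5.7% of all tested genes, and 5 had a positive fold change.

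**Figure D5:**
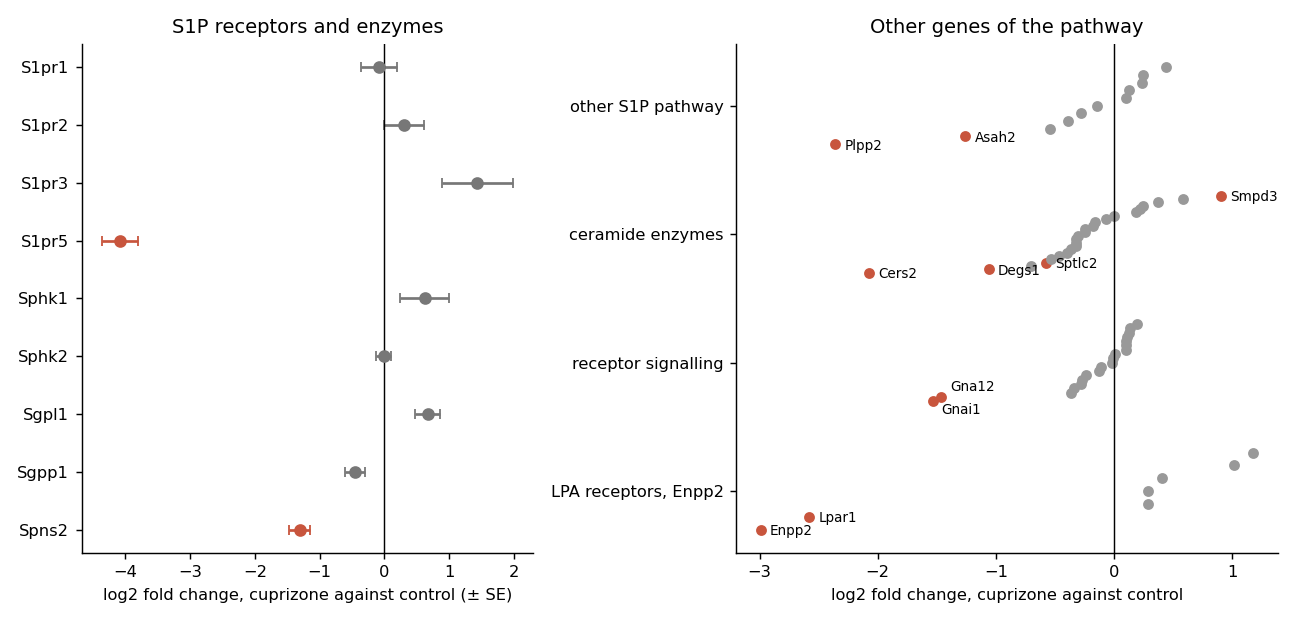
Log2 fold change of cuprizone against control (horizontal axis), left for the 9 members with SE and right for the other pathway genes, 1 point per tested gene; red marks an adjusted p under 0.05. S1pr5 (-4.08) and Spns2 (-1.31) pass on the left, and on the right 10 genes pass, of which Smpd3 alone is higher in cuprizone, at 0.91.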

How the data were processed

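The deposited values are raw counts of reads, with Ensembl gene identifiers in rows and 1 column per library, matched to samples by title. The submitters' processing notes name bcl2fastq 2.17 and mm10. The aligner, the counting program and its strand setting are unstated (not given in the sources used here). A read from exons shared by genes on both strands may have been counted for either. Names, coordinates and exonic lengths came from GENCODE M21 (GRCm38), which matched 37693 of 39017 identifiers. The members and lists were chosen with earlier results of these data known, and the motifs after the S1pr5 promoter had been seen.

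Counts were fitted in R 4.3.3 with edgeR 4.0.16 (filterByExpr, minimum count 10 and minimum total 15; TMM; robust glmQLFit and glmQLFTest, 2-sided; Benjamini-Hochberg adjustment over all 16569 genes; threshold 0.05). The SE was derived from the fold change and its F statistic. Within-library values used log2 CPM with a prior count of 2 and an exact permutation test. Replicates of a group differed by more than sampling noise (chi-square per degree of freedom 24.4 to 101) and were each counted once. Alternatives were other scalings and filters, DESeq2 1.42.0, limma-voom 3.58.1 and leaving out each library. Counting error is large for Sphk1 at about 1 CPM. Named genes are the members, in each pathway list the 3 with the smallest adjusted p and any past the threshold, the nearest profiles of members past it (5 for S1pr5, 3 otherwise), tested neighbours past it and the 2 most abundant genes of each marker list, some of which are not printed. Mal, Trf, S1pr4, Mfsd2b, Gnai2, Gnai3, Gna13, the other Lpar genes, genes that overlap members and genes named for a motif or position are outside this rule, and were named after their values were seen.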

Additional observations from a re-analysis of the deposited data

How the results depend on the processing

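S1pr5 and Spns2 fell under all 13 alternatives, with log2 fold changes of -4.35 to -3.85 and -1.48 to -1.19, and no other member fell in any. Members higher were 2 with DESeq2 (S1pr3 and Sgpl1) and 1 without cuprizone replicate 32 (0 to 1 with a library left out). S1pr1 ran from -0.25 to 0.17 with a library left out, the latter without cuprizone replicate 32. Sphk2, near 0, was at 0.0028 with RLE scaling, 0.0472 with upper-quartile scaling, 0.0051 with no filter, 0.0028 with DESeq2, 0.0286 and 0.0324 without control replicate 24 or 27 and 0.008 without cuprizone replicate 30, and ran from -0.061 to 0.0324 with a library left out. Keap1 ran from -0.031, without control replicate 27, to 0.10. Over all genes DESeq2 called 862 higher, and with a library left out 65 to 464 were higher and 474 to 963 lower, beside 310 and 945; the lowest counts came without control replicate 24, 26 or 27 (157, 73 and 65 higher, 519, 474 and 495 lower) and cuprizone replicate 30 (91 and 480). DESeq2 called 1400 lower. Among the S1pr5 neighbours 3 were higher with DESeq2 and 1 was lower with DESeq2, limma-voom, the CPM filter and TMM factors without the mature oligodendrocyte markers and 20 most abundant genes; with a library left out 0 to 1 were higher and 0 to 2 lower. With a library left out 1 to 2 other S1P pathway genes were lower, 0 to 2 ceramide enzymes higher and 1 to 3 lower, and 1 to 2 of the lysophosphatidic acid genes lower. The change in the S1pr5 share, its distance from the markers and the kinase ratio kept their direction, at -33.3 to -27.1 percentage points, -1.07 to -0.82 and -0.50 to -0.19. No scaling moved the median of all genes by more than 0.06. Sphk1 had no value with the CPM filter. The cause of these shifts was not tested. No paired analysis was possible because the groups share no replicate number.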
